A study of Mus musculus with 6 samples.

Results

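The genes described here are 10 mouse genes that handle reactive oxygen: the peroxiredoxins Prdx1, Prdx2, Prdx3, Prdx5 and Prdx6, the superoxide dismutases Sod1 and Sod2, the glutathione synthesis subunits Gclc and Gclm, and the glutathione reductase Gsr. They were chosen by name, through the Ensembl identifiers of the deposited count table, and all 10 were found among its 53465 genes and passed the filter on low counts. Superoxide dismutases turn superoxide into hydrogen peroxide, and peroxiredoxins reduce that peroxide with a reactive cysteine that is then recharged by thioredoxin or, for Prdx6, by glutathione. Glutathione is built by glutamate cysteine ligase, a catalytic subunit (Gclc) with a modifier subunit (Gclm), and is kept reduced by Gsr with NADPH. Many of these genes are known targets of the transcription factor NRF2, and tumour cells commonly depend on them to withstand oxidants.

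The series measured ribosome-protected fragments, the pieces of mRNA shielded by ribosomes, in ID8, a mouse tumour cell line of ovarian surface epithelial origin, and asked whether translation differs after targeting of Nat10, the RNA cytidine acetyltransferase. There were 3 libraries labelled WT (ID8 cells with the control guide sgNC) and 3 labelled KO (ID8 cells with the guide sgNat10), and all 6 came from cells given cycloheximide. WT and KO stand for these labels throughout. Whether the KO cells were a clone or a pool was not given in the sources used here. The same holds for the origin of the replicates, so the p-values cover the variation among these libraries, which may be technical. A fragment count reflects both the amount of an mRNA and how densely ribosomes occupy it, and no matched RNA measurement was used here, so the 2 cannot be told apart, nor can fewer cells expressing a gene and fewer fragments per cell.

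Libraries held 1687466 to 3126208 counts. Levels are CPM, counts scaled to a common library size after TMM adjustment (trimmed mean of M-values), and a gene was called when its edgeR quasi-likelihood p, adjusted by Benjamini-Hochberg over all 8200 tested genes, was under 0.05. Nat10 itself was counted 168, 128 and 292 times in the WT libraries and 315, 133 and 445 times in the KO libraries, or 112 ± 53.1 and 106 ± 43.1 CPM (SD, n = 3). The groups overlapped, with a log2 fold change of -0.074 (95% interval -1.09 to 0.94), so no clear difference was seen, and since the site cut by the guide was not known here, these values do not check the KO label. Of 9 markers of ovarian surface and mesothelial cells 6 averaged at least 20 CPM, among them Krt8, Krt18 and Msln, with Krt7, Muc16 and Lrrn4 lower. Their sum ran from 5869 to 6340 CPM in WT and from 4180 to 4827 CPM in KO. The 7 leukocyte markers summed to at most 1.55 CPM, with Cd3e, Itgam and Tyrobp at 0 in all libraries, and the 4 endothelial markers to at most 5.996 CPM in any library. Of 5 fibroblast markers Dcn alone reached 20 CPM, and their sum ran from 666 to 737 CPM in WT and from 951 to 1325 CPM in KO. The part of these shifts in the results below was not tested. In each library the number of genes with a given count had a local peak away from low counts, at 15 to 39 in WT and 42 to 60 in KO. This peak is called the modal count here, and counts of the 10 genes below it are pointed out. Library totals divided by it were 112498, 102320 and 46442 in WT and 60506, 48572 and 52103 in KO. The raw totals therefore do not rank the libraries as these quotients do, and what sets the peak was not tested. Log CPM over the tested genes correlated at 0.62 to 0.71 among the WT libraries and at 0.57 to 0.60 among the KO libraries. Between WT and KO libraries the correlations were 0.54 to 0.63. The KO libraries thus resembled each other about as much as they resembled the WT libraries.

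Peroxiredoxins are built around one conserved active-site cysteine, and the coding stretches around it are shown because their closeness decides whether a fragment of 25 to 34 nt can be assigned to the right family member. The stretches are coding sequence of GENCODE M21 transcripts on GRCm38, 30 bases each, 5′ to 3′, with the codon of that cysteine in capitals.
Prdx1: tttacttttgtgTGTcccacggagatcatt
Prdx2: ttcacttttgttTGCcccacggagatcatc
Prdx3: ttcacatttgtgTGTcctacagaaattgtt
Prdx5: tttacacctggcTGTtctaagacccacctg
Prdx6: tttaccccagtgTGCaccacagaacttggc
The Prdx1 stretch (codon 52) lies within 1 exon at chr4:116691811-116691840 on the plus strand, the Prdx2 stretch (codon 51) at chr8:84970471-84970500 on the plus strand, and the Prdx6 stretch (codon 47) at chr1:161247353-161247382 on the minus strand. Those of Prdx3 (codon 109) and Prdx5 (codon 96), both on the minus strand of chromosome 19, cross an exon junction. Prdx1 and Prdx2, the cytosolic pair, differed at 4 of these 30 bases, Prdx1 and the mitochondrial Prdx3 at 7, and Prdx5 and Prdx6 at 17. Over the whole coding sequence the longest run shared by any pair of these 5 genes was 16 nt (Prdx5 with Prdx6), and Prdx1 and Prdx2 shared at most 14 nt. Prdx4, a peroxiredoxin outside this set, shared a run of 23 nt with Prdx2 and of 17 nt with Prdx1 and with Prdx3. No pair therefore shared a run of the shortest fragment length, 25 nt, though Prdx2 and Prdx4 came close.

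Copies elsewhere in the genome were the larger source of ambiguity. Of the 570 coding stretches of 28 nt in Prdx1, 73.0% had an identical copy outside the gene, at 3 other places. For Sod1 the share was 54.7%, for Prdx2 42.9% and for Prdx6 13.8%. A single stretch of Prdx3 was found elsewhere (0.134%), and none of Prdx5, Gsr, Gclc, Gclm or Sod2. The copies lay in processed pseudogenes, and for Prdx6 also in its coding paralog Prdx6b. The table gave these places almost no counts, 13 over all 6 libraries at the genes holding the Prdx1 copies against 3319 for Prdx1 itself, 8 against 2518 for Prdx2 and 6 against 1350 for Sod1. The treatment of fragments with several matches was not given in the sources used here. The absolute levels of Prdx1, Prdx2 and Sod1 are therefore uncertain, and the effect on the comparison of groups was not tested.

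**Figure D1:**
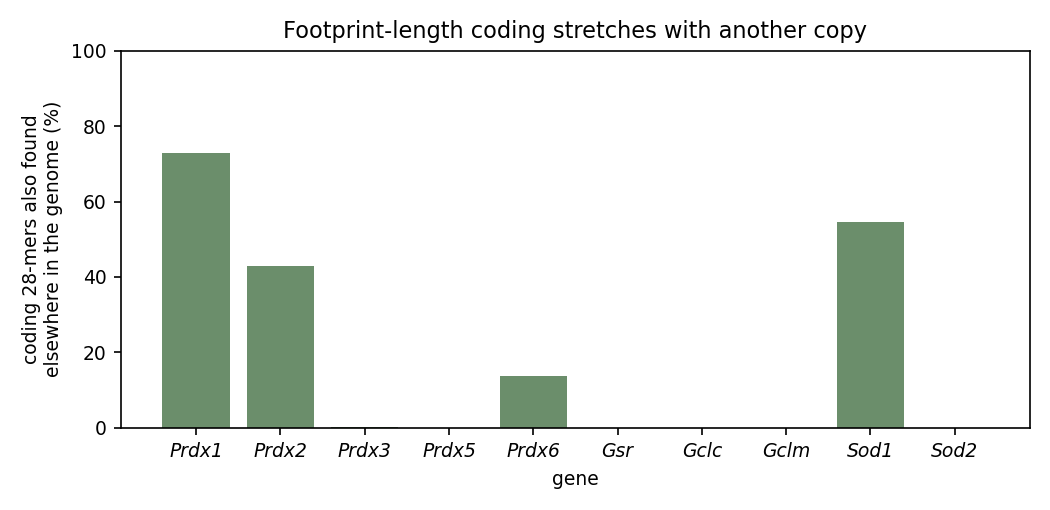
Share of the 28-nt stretches of each coding sequence (y axis, percent) that also occur, on either strand, outside the gene on the assembled chromosomes of GRCm38, for each of the 10 genes (x axis). Prdx1 (73.0%), Sod1 (54.7%) and Prdx2 (42.9%) stand well above the other genes.

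None of the 10 genes differed between the groups by the test. EdgeR called 0 of 10, against 0.402% of all 8200 tested genes, and 1 gene, Sod2, had an unadjusted p under 0.05, which 6.49% of all tested genes had. DESeq2 and limma-voom also called 0 of the 10, against 2.89% and 1.13% of all tested genes, and so did edgeR on counts divided by the modal count, against 1.39%. Of all tested genes 0.22% were called lower and 0.183% higher in KO. Log2 fold changes, KO minus WT, were negative for 5 and positive for 5 of the genes, with a median of -0.11, and 51.0% of all tested genes were negative, with a median of -0.016. The 5 positive values lay between 0.022 and 0.11, whereas the negative ones reached -1.54. The groups did not overlap for 2 of the 10 genes, Prdx1 and Sod2, both lower in KO, and 14.9% of all tested genes had groups that did not overlap (7.93% lower, 6.94% higher in KO). Both shares for this set rest on 1 or 2 genes.

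**Figure D2:**
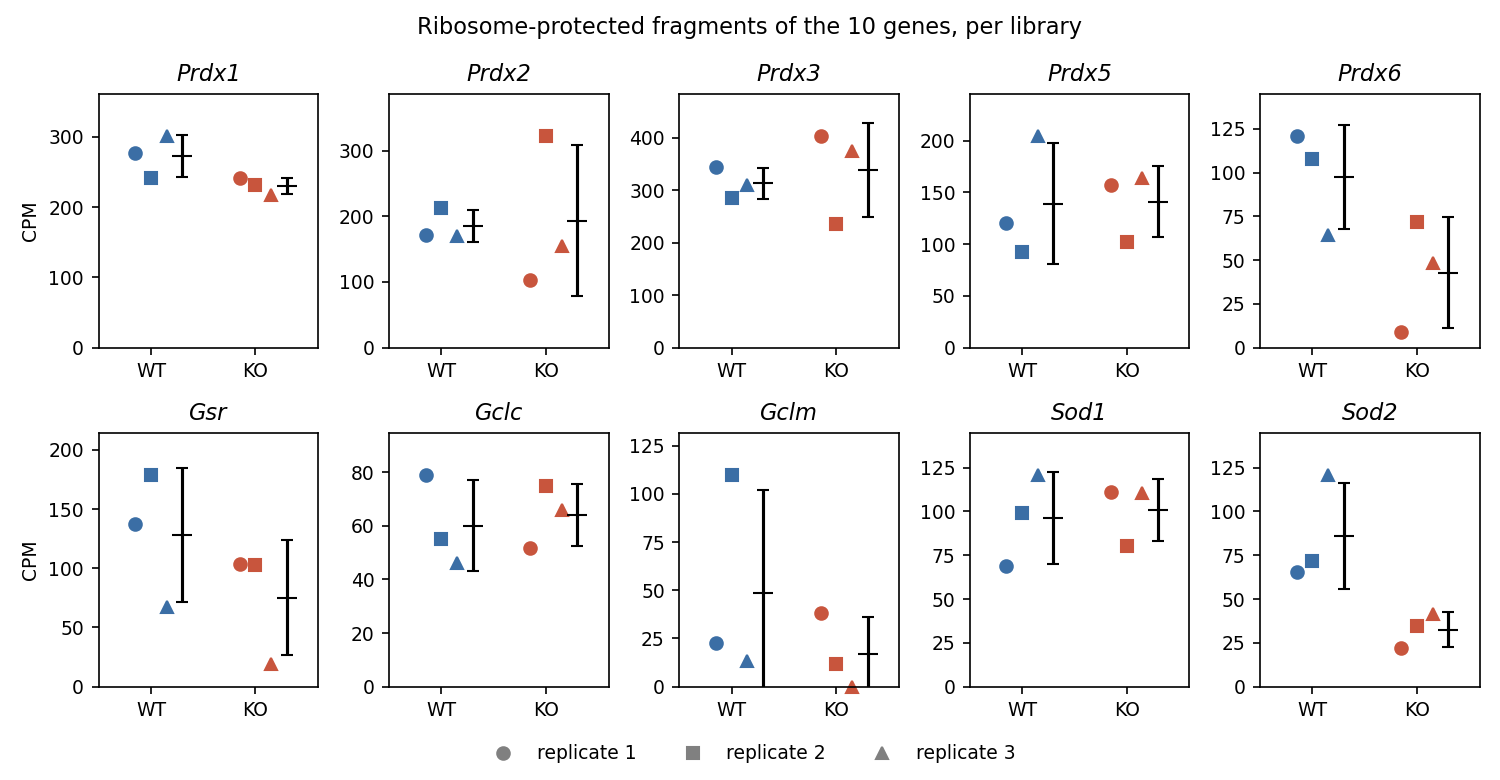
Level of each gene in CPM (y axis, from 0, scaled per panel) in the 3 WT libraries (blue) and the 3 KO libraries (red), with a symbol per replicate number; the black dash and bar beside each group are its mean and SD (n = 3), and the lower bars of Gclm run past 0. Sod2 is lower in every KO library than in every WT library, from 65.7 CPM down to 41.3 CPM at the nearest.

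Prdx1, an abundant cytosolic peroxiredoxin (ENSMUSG00000028691, chromosome 4, 116685544 to 116700822, plus strand), had 277, 242 and 301 CPM in the WT libraries and 241, 231 and 218 CPM in the KO libraries. The KO values were all lower, but the closest pair, WT replicate 2 and KO replicate 1, differed by less than the spread within either group. The log2 fold change was -0.25 (SE 0.26, 95% interval -0.81 to 0.31; edgeR adjusted p = 1.0). Prdx2, its close cytosolic relative (ENSMUSG00000005161, chromosome 8, 84969587 to 84974834, plus strand), had 172, 213 and 171 CPM in WT and 103, 322 and 155 CPM in KO. The highest and the 2 lowest of the 6 values were all from KO libraries, around the WT values. Its log2 fold change of 0.060 (SE 0.39) went to -0.51 without KO replicate 2. Prdx2 overlaps Rnaseh2a and Junb on the opposite strand, which had 46 to 240 and 43 to 235 counts per library, and the strand setting of the counting was not given in the sources used here.

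Prdx3, the peroxiredoxin of the mitochondrial matrix (ENSMUSG00000024997, chromosome 19, 60864051 to 60874556, minus strand), gave the most counts of the 10 genes, 4472 over the 6 libraries. It had 345, 285 and 310.5 CPM in WT and 404, 236 and 376 CPM in KO. The groups overlapped, with KO replicate 2 below and the other KO libraries above all WT libraries. Its log2 fold change was 0.11 (SE 0.26), and the 95% interval, -0.45 to 0.67, was among the narrowest of the 10. Prdx5, which is found in mitochondria, peroxisomes and cytosol (ENSMUSG00000024953, chromosome 19, 6906697 to 6910106, minus strand), had 120.4, 92.4 and 205 CPM in WT and 158, 102 and 164 CPM in KO. WT replicate 3 was the highest and WT replicate 2 the lowest of the 6, so the KO values lay within the WT range, and the log2 fold change was 0.022 (SE 0.39). Prdx5 overlaps Trmt112 on the opposite strand, which had 0 to 58 counts per library.

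Prdx6, the peroxiredoxin with a single catalytic cysteine that uses glutathione (ENSMUSG00000026701, chromosome 1, 161240112 to 161251219, minus strand), had 121, 108 and 64.2 CPM in WT and 8.97, 71.5 and 48.1 CPM in KO. The groups overlapped through KO replicate 2 and WT replicate 3, and KO replicate 1 stood far below the rest with 23 counts, under the modal count of 42 of that library. The log2 fold change was -1.19 (SE 0.66, 95% interval -2.60 to 0.22; edgeR adjusted p = 0.93). It ran from -1.75 without KO replicate 2 to -0.70 without KO replicate 1. Among the 5 peroxiredoxins Prdx6 had the lowest counts, and its interval was the widest.

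Sod2, the manganese enzyme that removes superoxide in the mitochondrial matrix (ENSMUSG00000006818, chromosome 17, 13006846 to 13040063, plus strand), was counted 108, 143 and 209 times in the WT libraries and 56, 81 and 133 times in the KO libraries. These corresponded to 65.7, 71.5 and 121 CPM (WT) and to 21.8, 34.7 and 41.3 CPM (KO). Every KO library lay below every WT library, and the highest of the 6 was WT replicate 3. The WT mean was 86.0 ± 30.3 CPM and the KO mean 32.6 ± 9.87 CPM (SD, n = 3), a log2 fold change of -1.40 (SE 0.58, 95% interval -2.64 to -0.15) with an unadjusted p = 0.030 and an edgeR adjusted p = 0.63. Its value stayed negative in each of 16 other settings, from -1.61 without KO replicate 3 to -1.07 without WT replicate 3. Because the groups did not overlap, leaving out 1 library could hardly turn the sign, and the other settings used the same libraries. None of the 16 settings called Sod2 (DESeq2 adjusted p = 0.16). The KO counts were 1.33 to 2.22 times the modal counts of their libraries and the WT counts 5.36 to 7.20 times. Sod1, the copper and zinc enzyme of the cytosol (ENSMUSG00000022982, chromosome 16, 90220754 to 90226329, plus strand), had 68.7, 98.9 and 121 CPM in WT and 111, 80.5 and 111 CPM in KO. All 3 KO values fell within the WT range, with a log2 fold change of 0.068 (SE 0.42, 95% interval -0.83 to 0.97). Whether the differences of the 2 dismutases differ from each other was not tested. Sod1 overlaps Scaf4 on the opposite strand, which had 0 to 189 counts per library.

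Gclc, the catalytic subunit of glutamate cysteine ligase (ENSMUSG00000032350, chromosome 9, 77754535 to 77794485, plus strand), had 79.0, 55.0 and 46.3 CPM in WT and 51.9, 74.9 and 65.8 CPM in KO. The KO values fell within the WT range, and the log2 fold change was 0.096 (SE 0.54). Gclm, the modifier subunit that makes the ligase more efficient (ENSMUSG00000028124, chromosome 3, 122245557 to 122270732, plus strand), was counted 37, 220 and 23 times in the WT libraries and 98, 28 and 0 times in the KO libraries. In CPM these were 22.5, 109.9 and 13.3 (WT) and 38.2, 11.99 and 0 (KO). If each count is an independent fragment, the 0 in KO replicate 3 allows a level of up to 0.931 CPM (3 counts, counting error only). The modal count of that library was 60, and where counts repeat the same fragment the bound would be higher. The groups overlapped, WT replicate 2 held most of the WT fragments, and 3 libraries, WT replicate 3 and KO replicates 2 and 3, were under their modal counts. The log2 fold change of -1.54 (SE 1.42) had an interval from -4.57 to 1.49 and went to -0.099 without WT replicate 2. No direction can therefore be given from these libraries. Gclm overlaps the noncoding gene Gm17494 on the opposite strand, which had 118 to 221 counts per library.

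Gsr, which regenerates reduced glutathione (ENSMUSG00000031584, chromosome 8, 33652523 to 33698163, plus strand), had 137, 179 and 67.1 CPM in WT and 104, 103 and 18.9 CPM in KO. The 2 higher WT libraries lay above all KO libraries, WT replicate 3 lay below 2 of them, and KO replicate 3 was the lowest. The log2 fold change was -0.77 (SE 0.58, 95% interval -2.02 to 0.48; edgeR adjusted p = 1.0), and it moved to -0.31 without KO replicate 3.

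**Figure D3:**
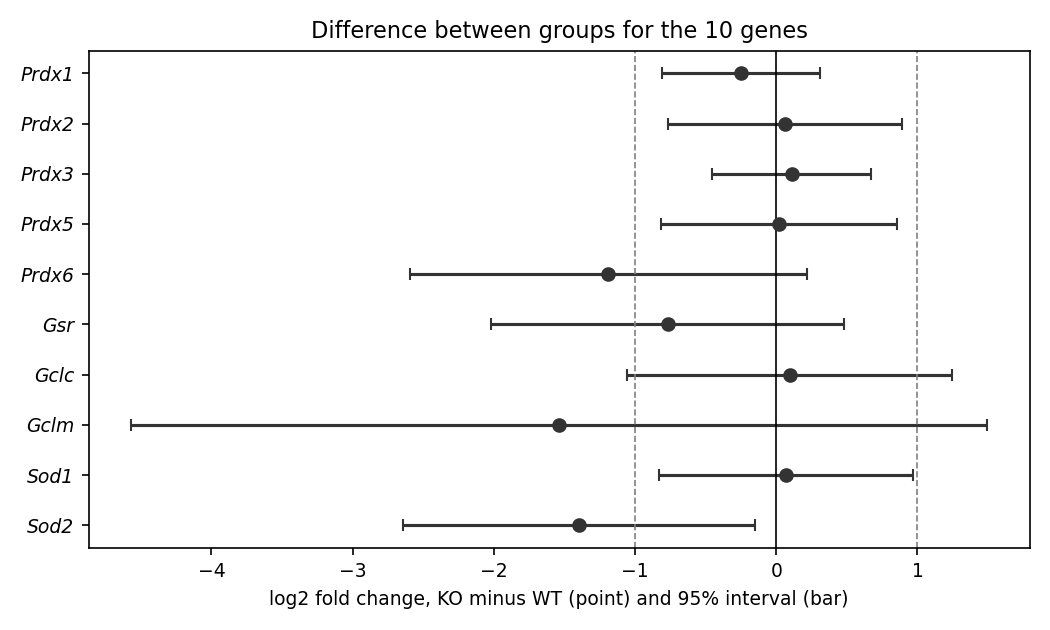
Log2 fold change, KO minus WT (x axis, point), with its 95% interval (bar) from the edgeR fit for each of the 10 genes (y axis); dashed lines mark a 2-fold change either way. Prdx1, Prdx2, Prdx3, Prdx5 and Sod1 keep their whole interval inside the dashed lines, and Sod2 is the gene whose interval lies wholly below 0.

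The intervals show which sizes of change the data leave room for. For 5 genes, Prdx1, Prdx2, Prdx3, Prdx5 and Sod1, the 95% interval lay within a 2-fold change either way, as it did for 9.44% of all tested genes. All 774 such genes were among the 3257 that averaged at least 50 CPM, as these 5 do. The interval of Gclc reached just past 2-fold in both directions (fold 0.481 to 2.37). For Prdx6, Gsr, Gclm and Sod2 the intervals included falls of more than 2-fold, and those of Prdx6, Gsr and Sod2 excluded a 2-fold rise. A p that missed the threshold for these 4 genes does not show equal levels.

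Summed over the 10 genes, a sum chosen after the values were seen and given with no test, the level was 1408, 1455 and 1419 CPM in WT and 1241, 1268 and 1197 CPM in KO. The KO libraries were all lower. The 5 peroxiredoxins made up most of it, with WT at 1009 ± 59.8 CPM and KO at 946 ± 27.7 CPM (SD, n = 3), and their sums overlapped between groups. The 2 dismutases summed to 182 ± 54.6 and 133 ± 18.4 CPM, and the 3 glutathione genes to 236 ± 109 and 156 ± 61.9 CPM, in WT and KO. The sums of the dismutases and those of the glutathione genes overlapped between groups as well.

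Per length of coding sequence 4 of the peroxiredoxins, Prdx1, Prdx2, Prdx3 and Prdx5, had the highest means. Prdx3 and Prdx1 led with means over all 6 libraries of 423 and 421 CPM per kb, above 97.3% of the 8087 tested genes with a coding sequence, and did not differ beyond their spread. Prdx2 followed at 318 CPM per kb, with an SD of 193 in KO that covers its distance to the neighbours. Prdx5 (223 CPM per kb) and Sod1 (213 CPM per kb) did not differ beyond their spread either. Prdx6 (105 CPM per kb), Sod2 (89.0) and Gsr (67.6) came next, each within the spread of its neighbour. Gclm (39.7) and Gclc (32.5) were the lowest, against a median of 25.7 CPM per kb over all tested genes. Their order turned between groups, with Gclm at 59.1 ± 64.9 and Gclc at 31.4 ± 8.89 CPM per kb in WT but 20.4 ± 23.8 and 33.6 ± 6.07 in KO (SD, n = 3), and WT replicate 2 alone held 134 CPM per kb of Gclm. The copies of Prdx1, Prdx2 and Sod1 in the genome make their place in this order uncertain.

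The coding sequences of 8 of the 10 genes were shorter than the median of tested genes, 1452 nt, from 462 nt for Sod1 to 822 nt for Gclm, while Gsr (1500 nt) and Gclc (1911 nt) were longer. Acetylation by NAT10 has been described at cytidines in the wobble position of codons, so the share of codons ending in C was computed. It ran from 21.4% in Sod1 to 39.9% in Prdx2, which stood above 93.1% of 8079 tested genes, and the median of those genes was 28.8%. Among the genes with the most negative fold changes it was 26.6% for Gclm, 29.7% for Sod2, 34.8% for Prdx6 and 34.8% for Gsr. Prdx6 and Gsr stood above 77.7% and 77.6% of the tested genes. Among the genes with positive values, all near 0, it ran from 21.4% for Sod1 to 39.9% for Prdx2. A relation between this share and the fold changes was not tested.

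Because these genes are known for control by NRF2, the promoter table of RefSeq (GRCm38.p6, 250 bases before to 50 after the start of a gene) was searched on both strands for the core of the antioxidant response element, TGACNNNGC, to which NRF2 binds. Promoters of 7 of the 10 genes were in the table, and 3 held a match, against 12.4% of all 32851 promoters. The matches are shown with 6 flanking bases on each side, the motif in capitals, each read on the minus strand.
Prdx1: gggggaTGACTCAGCgctttc
Gclm: gagagtTGACGGTGCgcccgg
Sod1: tgagtcTGACCACGCccacct
They lie at chr4:116685460-116685480 (Prdx1), chr3:122245417-122245437 (Gclm) and chr16:90220700-90220720 (Sod1). The match in Prdx1 also holds the letters TGACTCA, the site of AP-1 factors. Prdx2, Prdx3, Prdx5 and Sod2 had no match in this window. The 3 genes with a match had log2 fold changes of -0.25, -1.54 and 0.068, none of them called. A match describes the letters of the promoter and is not evidence of binding in these cells.

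The partners of these genes were taken from 6 lists of 79 genes in all, 62 of them tested. Of these 2 were called, both lower in KO, against 0.402% of all tested genes. Both averaged at least 50 CPM, and of the 3257 tested genes at that level 16 were called lower and 14 higher in KO. The lists were written with earlier results of these data known, so the count of 2 is not a test of the lists. Among 14 genes of the thioredoxin system and its peroxiredoxin partners 13 were tested, 8 with negative and 5 with positive log2 fold changes (median -0.14), and 1 was called. With 1 library left out the median ran from -0.36 without KO replicate 2 to 0.27 without WT replicate 2. Txn1, the cytosolic thioredoxin that recharges Prdx1 and Prdx2, had 823, 696 and 927 CPM in WT and 208, 232 and 252 CPM in KO. Every KO library was lower by a wide margin, and the log2 fold change was -1.82 (SE 0.22, edgeR adjusted p = 0.00098). Txn1 was called in each of the 16 other settings. Of its coding stretches of 28 nt, 28.8% also occur at the processed pseudogene Txn-ps1. That pseudogene had 2 counts over all 6 libraries, against 6234 for Txn1. The effect of this copy on the comparison of groups was not tested. Txnip, an inhibitor of thioredoxin, averaged 144 ± 38.7 (WT) and 55.8 ± 52.1 CPM (KO) with overlapping groups (-1.37, SE 0.58), and Prdx4, the peroxiredoxin of the endoplasmic reticulum, averaged 127 ± 34.4 and 179 ± 77.5 CPM (0.50, SE 0.38). Neither was called.

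The list for NADPH, the electron source of Gsr and of thioredoxin reductase, had the lowest median of the 6 lists. It holds enzymes that form NADPH and others of linked pathways, such as Tkt. Of the 14 genes in it 13 were tested, 11 with negative and 2 with positive log2 fold changes (median -0.50). EdgeR called 0 of them, while 3 had an unadjusted edgeR p under 0.05, against 6.49% of all tested genes. The median was negative in each of 16 other settings, from -0.60 to -0.32. G6pdx, the entry enzyme of the pentose phosphate pathway, had 407, 403 and 325 CPM in WT and 202, 232 and 208 CPM in KO (log2 fold change -0.82, SE 0.25, edgeR adjusted p = 0.34). Tkt, the transketolase of the same pathway, had 565, 534 and 513 CPM in WT and 361, 339.5 and 262 CPM in KO (-0.74, SE 0.22, edgeR adjusted p = 0.33). Me1, the cytosolic malic enzyme, averaged 642 ± 34.3 and 447 ± 112 CPM (-0.52, SE 0.23). For all 3 genes the groups did not overlap, with KO lower, as for 7.93% of all tested genes. Of the 3257 tested genes that averaged at least 50 CPM, as these 3 do, 403 had an unadjusted edgeR p under 0.05. In 340 of the 3257 the groups did not overlap, with KO lower. DESeq2, which called 2.89% of all tested genes, called G6pdx (adjusted p = 0.015) and Tkt (adjusted p = 0.019).

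The other lists centred near 0. For cysteine supply and glutathione turnover 10 of 15 genes were tested, 6 negative and 4 positive (median -0.18), 0 called by edgeR and 0 with an unadjusted p under 0.05; the median was positive without WT replicate 2 (0.040), WT replicate 3 (0.062) or KO replicate 3 (0.20), and with no count filter (0.22). The 3 with the smallest p were Chac2, which degrades glutathione (counted 36, 45 and 23 times in the WT and 12, 1 and 0 times in the KO libraries), the microsomal glutathione transferase Mgst1 (-0.41, SE 0.32) and Slc3a2, the heavy chain of the cystine transporter (-0.24, SE 0.30). All KO counts of Chac2 were under the modal counts. Of 10 glutathione peroxidases, glutaredoxins and catalase 6 were tested, 2 negative and 4 positive (median 0.11), 0 called by edgeR and 0 with an unadjusted p under 0.05, with Gpx8, a peroxidase of the endoplasmic reticulum, at 0.95 (SE 0.78), the catalase Cat at 0.51 (SE 0.55) and the glutaredoxin Glrx3 at -0.61 (SE 0.83). Of 8 genes of superoxide handling and metal delivery 5 were tested, 2 negative and 3 positive (median 0.00058), 0 called by edgeR and 0 with an unadjusted p under 0.05, and with 1 library left out the median ran from -0.47 without KO replicate 1 to 0.33 without KO replicate 2. Romo1 and the copper chaperone Atox1 had negative values (-1.21, SE 1.76, and -1.09, SE 1.67), and the secreted dismutase Sod3 stood at 0.083 (SE 0.70).

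Of 18 genes of NRF2 control and its other targets 15 were tested, 7 negative and 8 positive (median 0.11), and 1 was called. Gsta4, a glutathione transferase, had 1239, 1160.2 and 1297 CPM in WT and 387, 431 and 615 CPM in KO (-1.37, SE 0.21, edgeR adjusted p = 0.0084), a call that was kept in 12 of 16 other settings and missed without WT replicate 2 (adjusted p = 0.068), WT replicate 3 (0.088), KO replicate 1 (0.065) or KO replicate 2 (0.055). Blvrb, a biliverdin reductase, was counted 9, 45 and 28 times in the WT libraries, 0 times in every KO library and was not called. With it at the bound set by 3 counts the median of the list was again 0.11. That bound keeps Blvrb among the negative values, so the median could not move. Sqstm1, the autophagy receptor p62, averaged 490 ± 51.4 (WT) and 362 ± 71.5 CPM (KO; -0.43, SE 0.23). The median of this list was -0.30 without KO replicate 2.

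**Figure D4:**
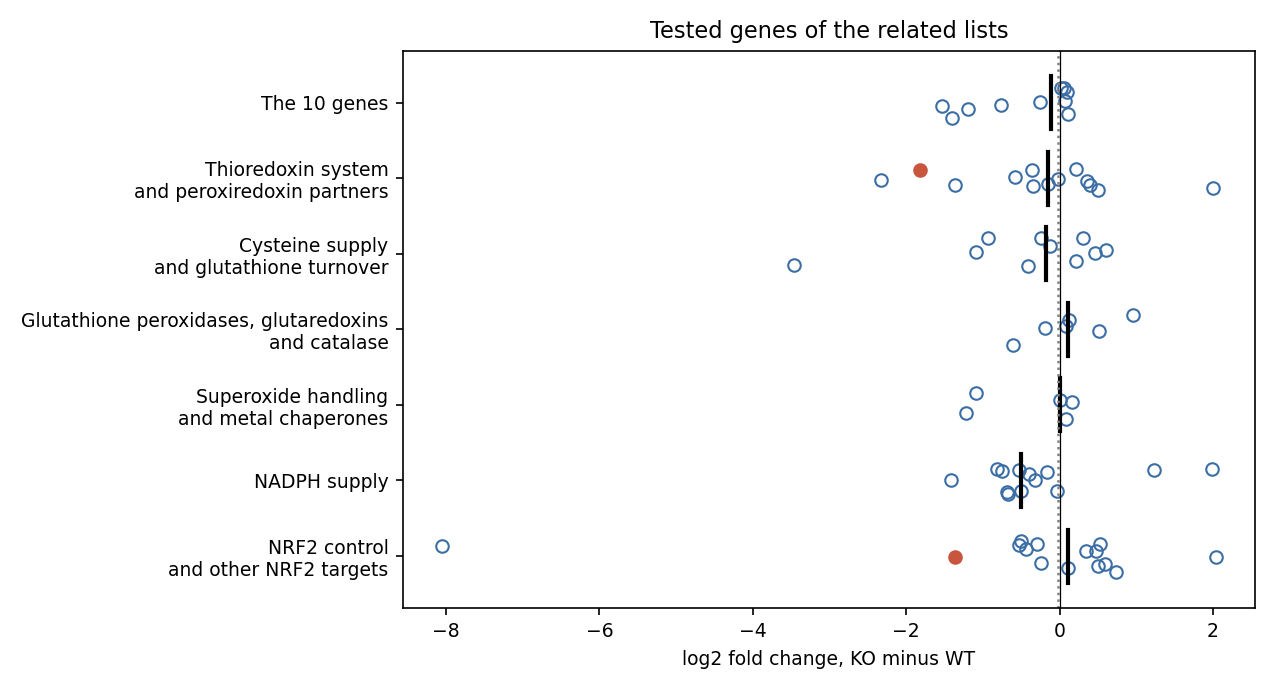
Log2 fold change, KO minus WT (x axis), of every tested gene of the 10 and of the 6 related lists (y axis); filled red points were called, open blue points were not, black bars are medians, the dotted line is the median of all 8200 tested genes (-0.016), and the point near -8 is Blvrb, whose KO counts were all 0. The 2 filled points are Txn1 and Gsta4, and the median of the NADPH list is the lowest at -0.50.

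**Figure D5:**
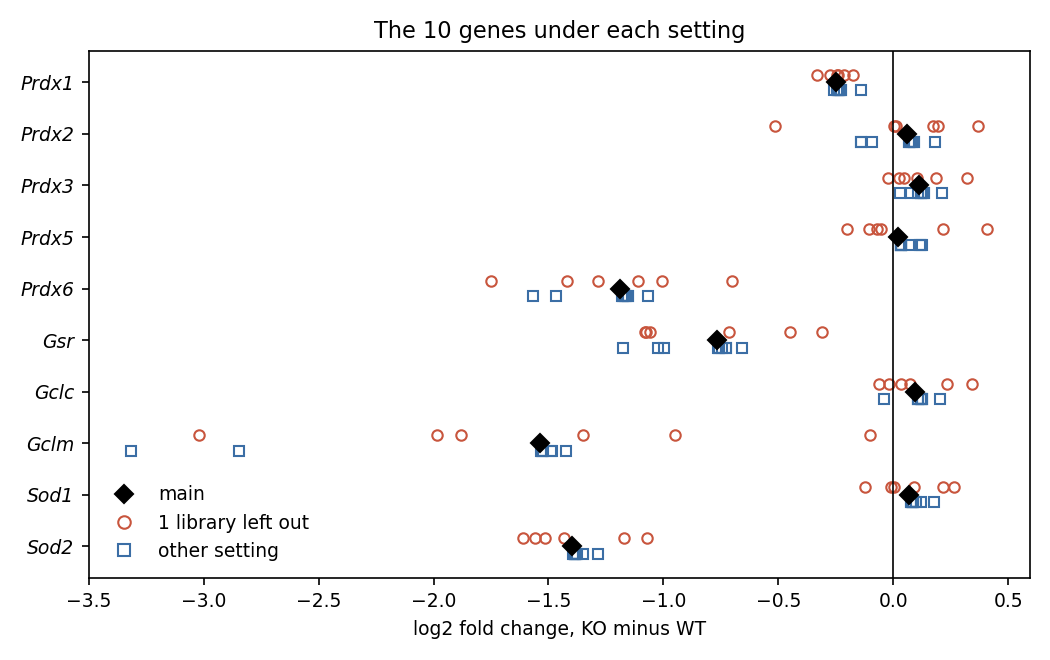
Log2 fold change, KO minus WT (x axis), of each of the 10 genes (y axis) under the main setting (black), with 1 library left out (red circles) and under the other settings (blue squares). Prdx1, Prdx6, Gsr, Gclm and Sod2 stay below 0 in every setting shown, while Prdx2, Prdx3, Prdx5, Gclc and Sod1 fall on both sides of 0.

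Prdx1, Prdx6, Gsr and Sod2 were negative in each of 16 other settings and Gclm in each of the 15 that tested it, whereas Prdx2 and Prdx5 took the opposite sign in 4, Gclc in 3, Sod1 in 2 and Prdx3 in 1. For Prdx1 and Sod2, whose groups did not overlap, leaving out 1 library could hardly turn the sign. In none of these settings was any of the 10 genes called.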

How the data were processed

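The deposited table holds raw counts of ribosome-protected fragments, with Ensembl genes in rows and 1 column per library. Per the labels' protocols, reads were trimmed with Cutadapt, those of 25 to 34 nt were kept, Bowtie took out rRNA and tRNA reads, HISAT2 aligned what was left to GRCm38 and Bowtie to transcripts. Further tools in the submitters' processing notes are featureCounts and DESeq2. Versions, the annotation, the strand setting and the treatment of duplicates were not given in the sources used here. Of 53465 identifiers 53360 matched GENCODE M21.

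The main test was edgeR 4.0.16 in R 4.3.3 (quasi-likelihood, robust, TMM, filterByExpr by group, 8200 genes, adjusted p under 0.05). SEs were derived from its F statistics. Alternatives were DESeq2 1.42.0, limma-voom 3.58.1, other scalings, filters and gene sets, counts divided by the modal count, a block on the replicate number, and each library left out in turn. Coding stretches of 28 nt were searched with Python 3.11.15. One leukocyte marker of the original list is not reported here. From the lists, called genes and the 3 with the smallest p are named. The 10 genes and the lists were chosen with earlier results of these data known.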

Additional observations from a re-analysis of the deposited data

How the results depend on the processing

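Of the 10 genes none was called in any of 16 other settings, and 4 to 7 of them were negative. Over all genes 33 were called, against 237 with DESeq2, 93 with limma-voom, 91 with no count filter, 114 on counts divided by the modal count and 6 to 29 with 1 library left out (6 without WT replicate 2 or WT replicate 3; dropping KO replicates 1, 2 and 3 in turn gave 15, 20 and 18); the cause was not tested. With library totals the split was 27 higher and 16 lower in place of 15 and 18, and the median of all genes was 0.093 in place of -0.016. The median of the 10 genes was 0.032 with the filter of 50 counts in 3 libraries, which leaves out Gclm, and -0.38 to -0.12 with 1 library left out. List medians that moved by more than the replicate spread were those of cysteine supply (0.22 with no count filter, -0.41 to 0.20 with 1 library left out), of glutathione peroxidases (0.52 with no count filter, 0.042 to 0.48 with 1 library left out) and of NRF2 targets (0.39 with the replicate block, -0.30 to 0.30 with 1 library left out).

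Signs turned for Prdx2 (-0.14 with limma-voom, -0.14 on counts divided by the modal count and -0.094 with the replicate block), Gclc (-0.040) and Sod3 (-0.20) on counts divided by the modal count, and Nat10 (0.019 with limma-voom, 0.026 with library totals, 0.077 on counts divided by the modal count). With 1 library left out, ranges that crossed 0 were -0.51 to 0.37 for Prdx2, -0.025 to 0.32 for Prdx3, -0.20 to 0.41 for Prdx5, -0.063 to 0.34 for Gclc, -0.12 to 0.26 for Sod1, -0.35 to 0.35 for Nat10, -0.41 to 0.020 for Slc3a2 and -0.47 to 0.71 for Sod3. Deviations of libraries with the same replicate number correlated at -0.017, -0.0026 and -0.0067, so the numbers were not taken to pair the libraries. With the replicate number as a block 38 genes were called, none of the 10 among them, and Sod2 stood at -1.39 (edgeR adjusted p = 0.93).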
